A study of Homo sapiens with 13 samples.

Results

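The genes described here are 8 genes that are recurrently altered in pancreatic cancer, out of 19974 protein-coding genes on chromosomes 1 to 22 and X. They are the tumour suppressors CDKN2A, CDKN2B, SMAD4, RNF43, KDM6A and BRCA2, the oncogene MYC, and MTAP, the neighbour of CDKN2A on chromosome 9. They were chosen by name, and each was taken as its RefSeq span on GRCh38 plus 50 kb to both sides. The peaks are from CUT&RUN, in which a nuclease tethered to an antibody releases the DNA beside a protein or a histone mark. All libraries came from PANC1 cells, a cell line from a human pancreatic ductal carcinoma, in a stable version made to express BRG1 and labelled BRG oe. The antibodies were against the chromatin remodelling proteins BRG1 and SMARCC1, the transcription factor NRF2, and the histone marks H3K4me1, H3K4me3 and H3K27ac, with 2 replicates of each, 12 libraries in all. Cells were mildly crosslinked in every library, and PANC1 cells without added BRG1 are not among the samples, so every value below is from BRG1-expressing cells. The labels do not say whether the 2 replicates of a target came from separate cultures, so the spread between them may be technical. An IgG control library was not used here.

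CDKN2A encodes 2 proteins from separate first exons, p16INK4a, which holds back CDK4 and CDK6 at entry to the cell cycle, and p14ARF, which protects p53. CDKN2B encodes p15INK4b, a relative of p16INK4a, and MTAP encodes methylthioadenosine phosphorylase of the methionine salvage pathway, which is often deleted together with CDKN2A. PANC1 is known as a line with a homozygous deletion of CDKN2A. H3K4me3 marks the start sites of active or poised genes, H3K27ac active start sites and enhancers, and H3K4me1 mostly enhancers. BRG1 and SMARCC1 are subunits of the BAF remodelling complex. A peak list cannot tell DNA that is lost from DNA that is present without a peak, and this was not tested here.

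The start regions of the chromosome 9 genes are shown because the contrast between MTAP and its neighbours turns on them, with that of KDM6A, the gene with the highest H3K4me3 and H3K27ac values of the group, beside them. Each is the 250 bases before a start site, 5′ to 3′, from the RefSeq table of GRCh38.p14, with CG dinucleotides in capitals. The start sites of 7 of the 8 genes were in that table and MYC was not.
MTAP, chr9:21802386-21802635, plus strand: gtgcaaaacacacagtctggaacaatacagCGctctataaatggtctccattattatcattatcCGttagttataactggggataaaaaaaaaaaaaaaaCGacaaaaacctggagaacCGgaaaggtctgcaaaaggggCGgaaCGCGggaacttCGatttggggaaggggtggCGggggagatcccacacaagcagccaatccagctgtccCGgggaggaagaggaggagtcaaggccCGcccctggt
CDKN2A, p14ARF start site, chr9:21995325-21995574, minus strand: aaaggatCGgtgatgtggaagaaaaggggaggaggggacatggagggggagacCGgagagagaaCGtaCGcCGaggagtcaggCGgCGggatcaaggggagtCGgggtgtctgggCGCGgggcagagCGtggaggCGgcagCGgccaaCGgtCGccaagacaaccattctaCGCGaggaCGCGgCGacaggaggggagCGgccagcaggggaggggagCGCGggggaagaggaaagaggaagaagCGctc
CDKN2A, p16INK4a start site, chr9:21974858-21975107, minus strand: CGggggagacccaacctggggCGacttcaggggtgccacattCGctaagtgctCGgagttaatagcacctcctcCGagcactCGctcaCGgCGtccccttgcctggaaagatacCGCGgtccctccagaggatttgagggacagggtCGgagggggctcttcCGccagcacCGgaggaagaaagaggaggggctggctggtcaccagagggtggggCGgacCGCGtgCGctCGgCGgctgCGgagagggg
CDKN2B, chr9:22009306-22009555, minus strand: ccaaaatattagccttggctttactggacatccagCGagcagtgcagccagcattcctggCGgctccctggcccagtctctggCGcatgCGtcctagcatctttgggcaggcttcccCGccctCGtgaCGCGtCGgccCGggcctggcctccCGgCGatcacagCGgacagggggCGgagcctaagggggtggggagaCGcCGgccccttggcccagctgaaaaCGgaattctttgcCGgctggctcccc
KDM6A, chrX:44872938-44873187, plus strand: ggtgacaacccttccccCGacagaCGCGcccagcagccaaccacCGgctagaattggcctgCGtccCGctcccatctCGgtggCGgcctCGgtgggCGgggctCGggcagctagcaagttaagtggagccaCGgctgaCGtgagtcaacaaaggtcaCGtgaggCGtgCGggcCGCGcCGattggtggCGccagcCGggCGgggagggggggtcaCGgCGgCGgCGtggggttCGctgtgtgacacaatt
These stretches hold 11 CG dinucleotides before MTAP, 24 and 20 before the p14ARF and p16INK4a start sites of CDKN2A, 18 before CDKN2B and 27 before KDM6A. Over the 300 bases around the start site (250 before, 50 after), the observed over expected CpG ratio was 0.715 for MTAP, 1.13 and 0.764 for the p14ARF and p16INK4a start sites, 0.736 for CDKN2B and 0.889 for KDM6A, against a median of 0.738 over 22132 start sites of 15812 protein-coding genes. The p14ARF start site stood at percentile 97.9 of them, and the other 3 chromosome 9 start sites near the median.

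CDKN2A and CDKN2B had no peak of any of the 6 targets in any of the 12 libraries, in windows of 127.573 kb and 106.411 kb. MTAP, whose window of 238.48 kb overlaps that of CDKN2A, had H3K4me3 and H3K27ac peaks at its start site in every library of these marks, and no peak of the other 4 targets. Of all 19974 gene windows, 11.6% had no peak in any library. Among the 9692 genes with a start site of a CpG ratio at least that of MTAP, which include CDKN2A, CDKN2B and MTAP, 3.23% had none. That CpG threshold was set after the data were seen, because the lowest ratio among the 8 genes, at RNF43, was 0.

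**Figure D1:**
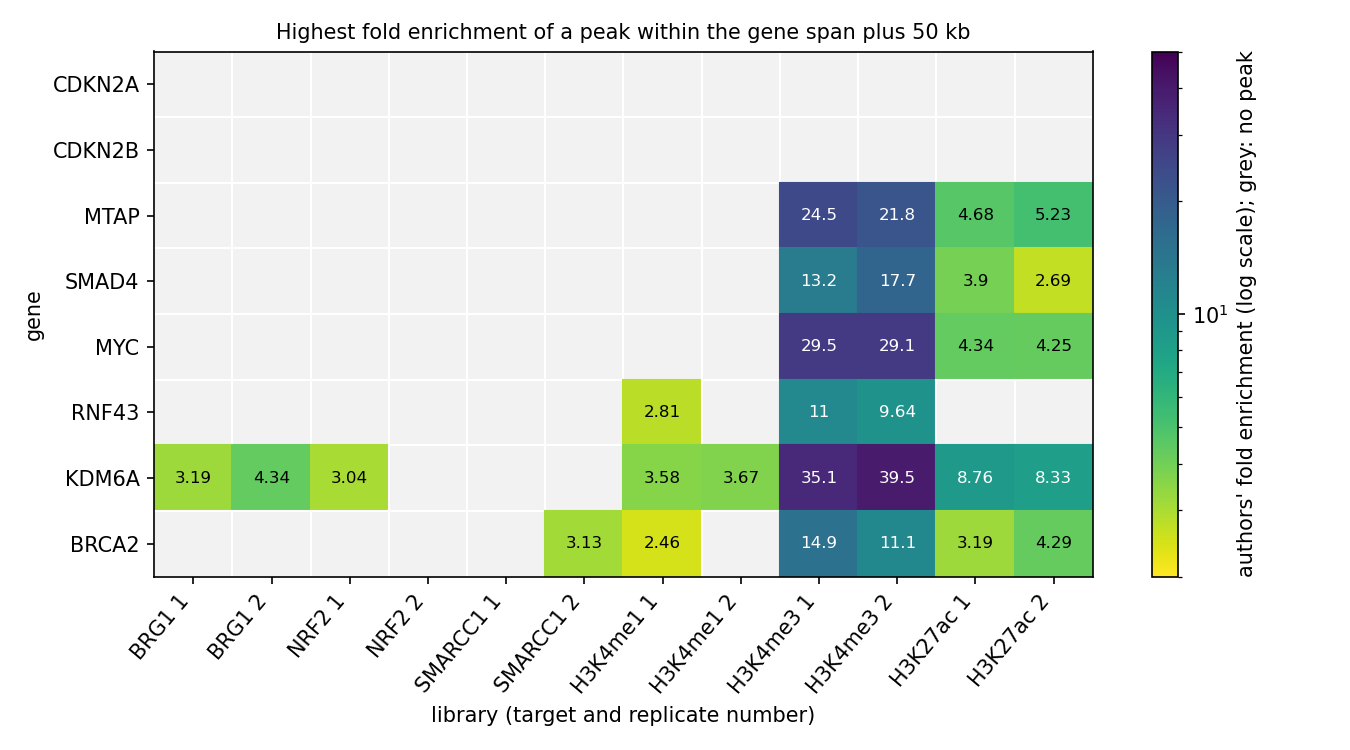
The highest fold enrichment of a peak in each of the 12 libraries (columns, replicates 1 and 2 of each target) for the 8 genes (lines), each over its span plus 50 kb; the colour scale is logarithmic and grey cells hold no peak. CDKN2A and CDKN2B are grey in every column, and KDM6A has the highest H3K4me3 values, 35.1 and 39.5.

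At MTAP the strongest H3K4me3 peak had a fold enrichment of 24.5 in replicate 1 and 21.8 in replicate 2 (23.2 ± 1.93, mean ± SD, n = 2). Fold enrichment is the value the authors' peak caller gave to each peak, and it is compared here only between genes within a library. The peaks were 2861 and 2920 bp wide, wider than 93.4% and 93.7% of the H3K4me3 peaks of their libraries (percentiles of width), and covered the start site. H3K27ac reached 4.68 and 5.23 (4.95 ± 0.385) just inside the gene, with summits 471 and 443 bp after the start site. The MTAP values were thus close in both replicates and ranked near the middle of all genes with a peak, at percentiles 68.6 and 56.4 for H3K4me3 and 40.1 and 53.9 for H3K27ac.

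The start sites of CDKN2A and CDKN2B held no peak of these marks. Across the genome 54.6% of start regions held an H3K4me3 region with a peak in both replicates. Of start regions with a CpG ratio of at least 0.715, which these 4 chromosome 9 start sites all have, 81.7% held one. The nearest H3K4me3 region to CDKN2A was the one inside MTAP, 162.704 kb from the low end of CDKN2A, and the nearest H3K4me1 region lay 255.884 kb away on the same side.

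**Figure D2:**
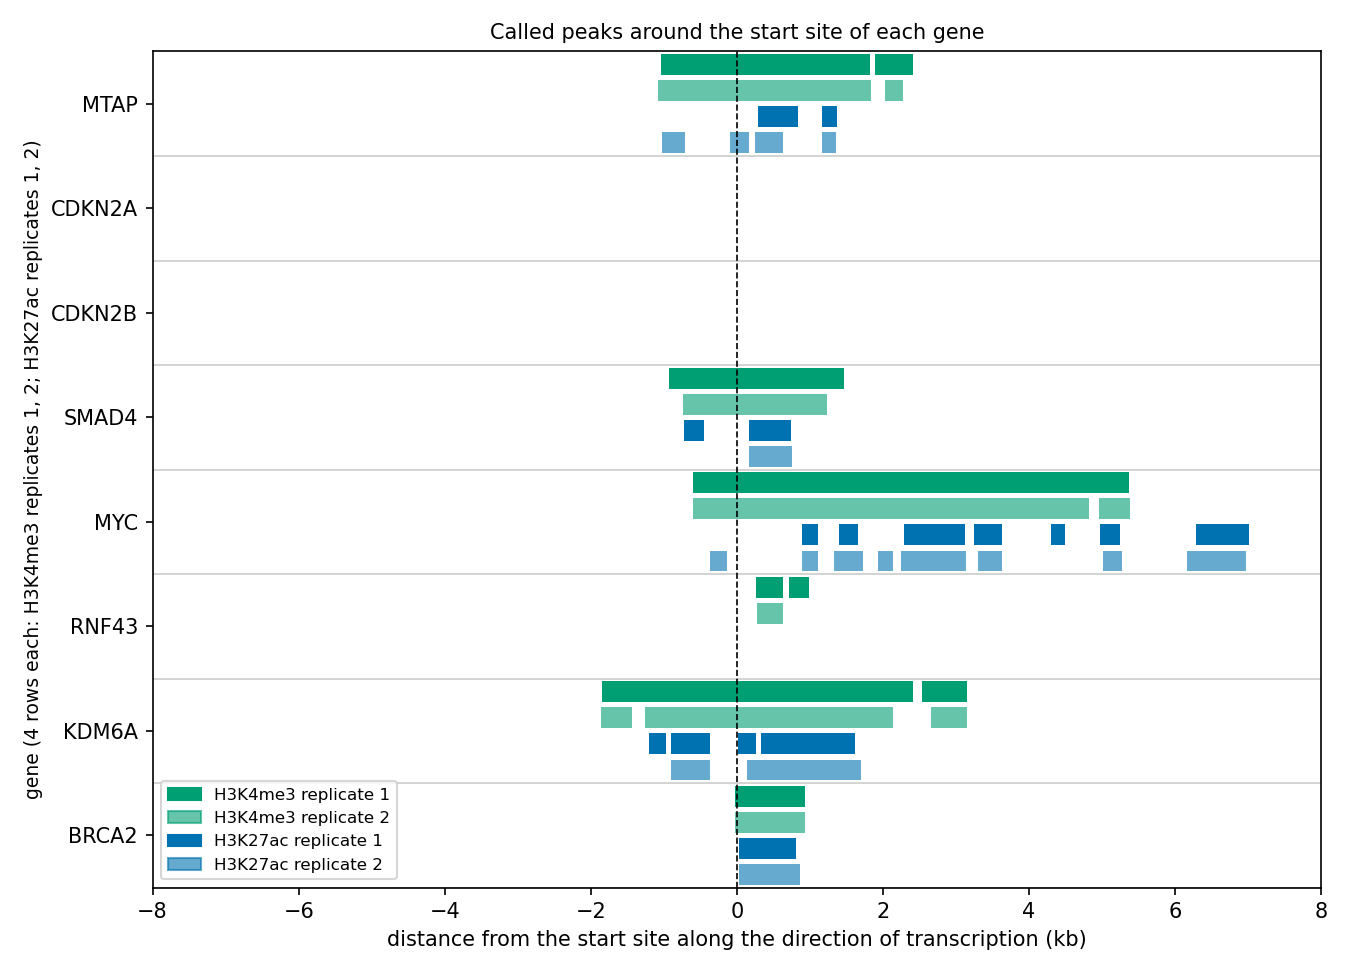
H3K4me3 and H3K27ac peaks within 8 kb of the start site of each gene (bars, to scale; 4 rows a gene, replicates 1 and 2 of each mark); CDKN2A is drawn from its p14ARF start site, RNF43 from its upstream start site and MYC from the low end of its span. CDKN2A and CDKN2B are empty, MYC has the widest H3K4me3 peaks, 5984 and 5438 bp, and the RNF43 peaks begin after the start site.

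The stretch from MTAP to CDKN2B, 9:21802636-22009313 (206.678 kb), was compared with the 1 Mb on each side as a possible deletion in this line. Its H3K4me3 peaks, 2 in each replicate, and its H3K27ac peaks, 2 and 3, all lay at the MTAP start. The wider H3K4me3 peak of each replicate and an H3K27ac peak of replicate 2 cross the edge of the stretch. These peaks were counted in both the stretch and the low flank. H3K4me3 density was 9.68 peaks per Mb in the stretch in both replicates, against 4.5 and 3 peaks per Mb in the flanks. H3K27ac density was 9.68 and 14.5 peaks per Mb in the stretch, against 23 in the flanks in each replicate. H3K4me1 had no peak in the stretch, against 1.5 and 1 per Mb in the flanks. Thus H3K4me3 was denser in the stretch and the other marks were sparser. Over the 6 mark libraries the stretch differed from its flanks by −2.08 ± 7.72 peaks per Mb (mean ± SD, n = 6), lower in 4 and higher in 2. The exact two-sided sign permutation test did not separate them (p = 0.531, smallest possible 0.03125). This SD mixes marks of unlike sign (means 5.93 for H3K4me3, −10.9 for H3K27ac and −1.25 for H3K4me1). Replicates of a mark may be technical, so the test says only whether libraries of this line share a direction. The direction turned to 2.13 peaks per Mb with flanks of 2 Mb (exact p = 0.281) and to 0.174 without H3K27ac replicate 1 (exact p = 1). With flanks starting 50 kb away, which leave out the peaks counted on both sides, the difference was −1.58 (exact p = 0.594).

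The part from CDKN2A to CDKN2B alone, 9:21967752-22009313 (41.562 kb), had 0 peaks in all 12 libraries. Its flanks of 1 Mb held 24 H3K27ac peaks per Mb in each replicate, 5 and 3.5 H3K4me3 peaks per Mb, and 1.5 and 1 H3K4me1 peaks per Mb. The difference was −9.83 ± 11.1 peaks per Mb over the 6 mark libraries (mean ± SD). This narrower part was chosen after its peaks were seen to be missing, which fixes the direction in every library, so the difference is a description with no test. An empty window of this length is common: 26.1% of windows of 41.562 kb with at least 2 protein-coding genes held no mark peak. For the length of the whole stretch, 38% of windows (5567 of 14649) held none, and 6.09% of those with at least 3 protein-coding genes.

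**Figure D3:**
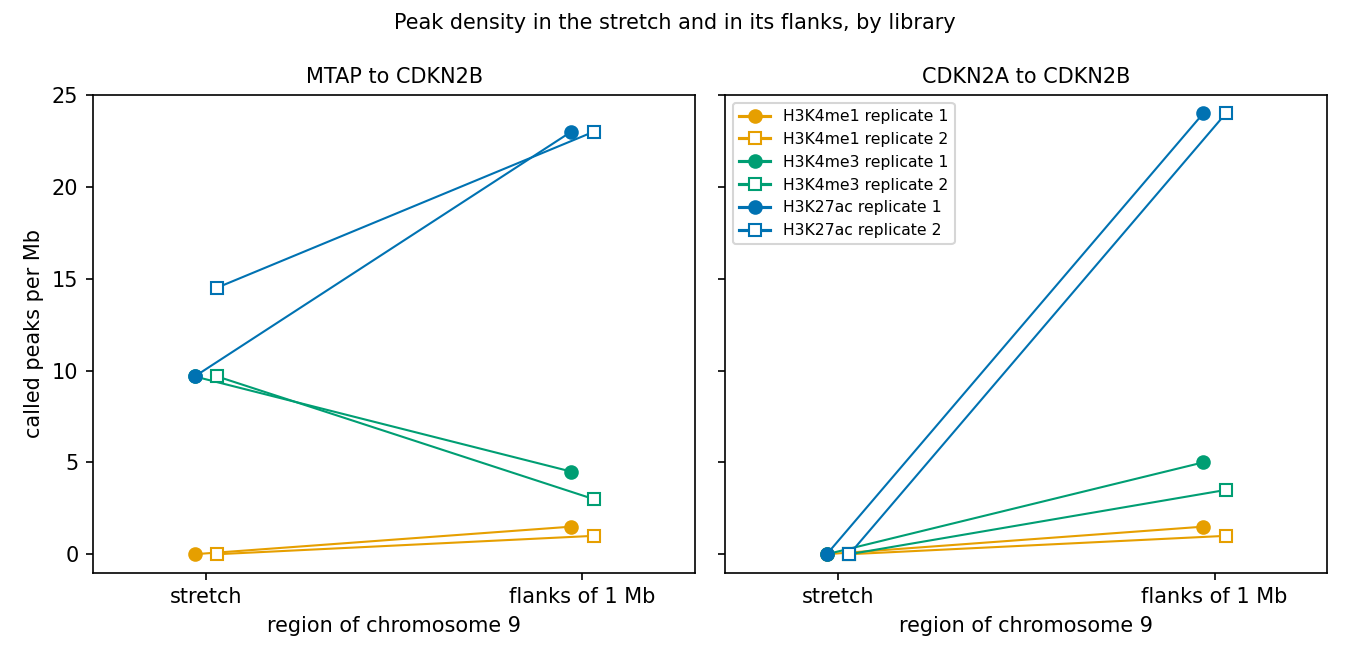
Called peaks per Mb in the stretch (left in each panel) and in its 1 Mb flanks (right), 1 line for each of the 6 mark libraries, for MTAP to CDKN2B and for CDKN2A to CDKN2B; points are shifted sideways by replicate to show overlaps. Lines cross in the first panel, where H3K4me3 is denser in the stretch, and all rise from 0 in the second.

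The flanks were uneven. Of the H3K27ac peaks, 45 and 44 lay in the low flank and 1 and 2 in the high flank, so the flank density comes nearly all from the low side. Most of these low-side peaks lay in a single cluster and not evenly along the flank. Measured from the low end of CDKN2A, it ran from −419 to −375 kb in replicate 1 and from −419 to −377 kb in replicate 2. H3K4me3 peaks there reached 32.2 and 27.2. Of 23 protein-coding genes within 1 Mb of the stretch, 4 carried a reproducible mark region. They were MTAP itself, DMRTA1, a gene of the DMRT transcription factor family, the ubiquitin ligase adaptor KLHL9, and FOCAD. FOCAD reaches into the flank only with its high end, and its marked regions lie outside the 1 Mb. The 16 interferon genes of this neighbourhood, which cells use in antiviral defence, carried none. The interferon genes with a start site in the table had CpG ratios of 0.0952 to 0.317, below those of CDKN2A and CDKN2B, while the unmarked gene HACD4 had 0.828.

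The interval without a mark peak around CDKN2A ran over 9:21805049-22446709, 641.661 kb. It began 2413 bp after the start site of MTAP, covered 136067 of the 138480 bp of MTAP and the whole of CDKN2A and CDKN2B, and ended 114 bp before the low end of DMRTA1. No library of BRG1, NRF2 or SMARCC1 had a peak in it either. Its length was close in the H3K4me3 and H3K27ac libraries taken singly: 641.664 and 641.794 kb for H3K4me3 and 642.698 and 642.708 kb for H3K27ac. In each H3K4me1 library it was part of a longer interval of 7217.46 kb. CDKN2A-AS1 and CDKN2B-AS1, noncoding RNA genes of this locus, lie wholly inside it. Peaks are numbered without a break in every deposited list, so no peak of this interval was dropped from the lists after numbering.

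**Figure D4:**
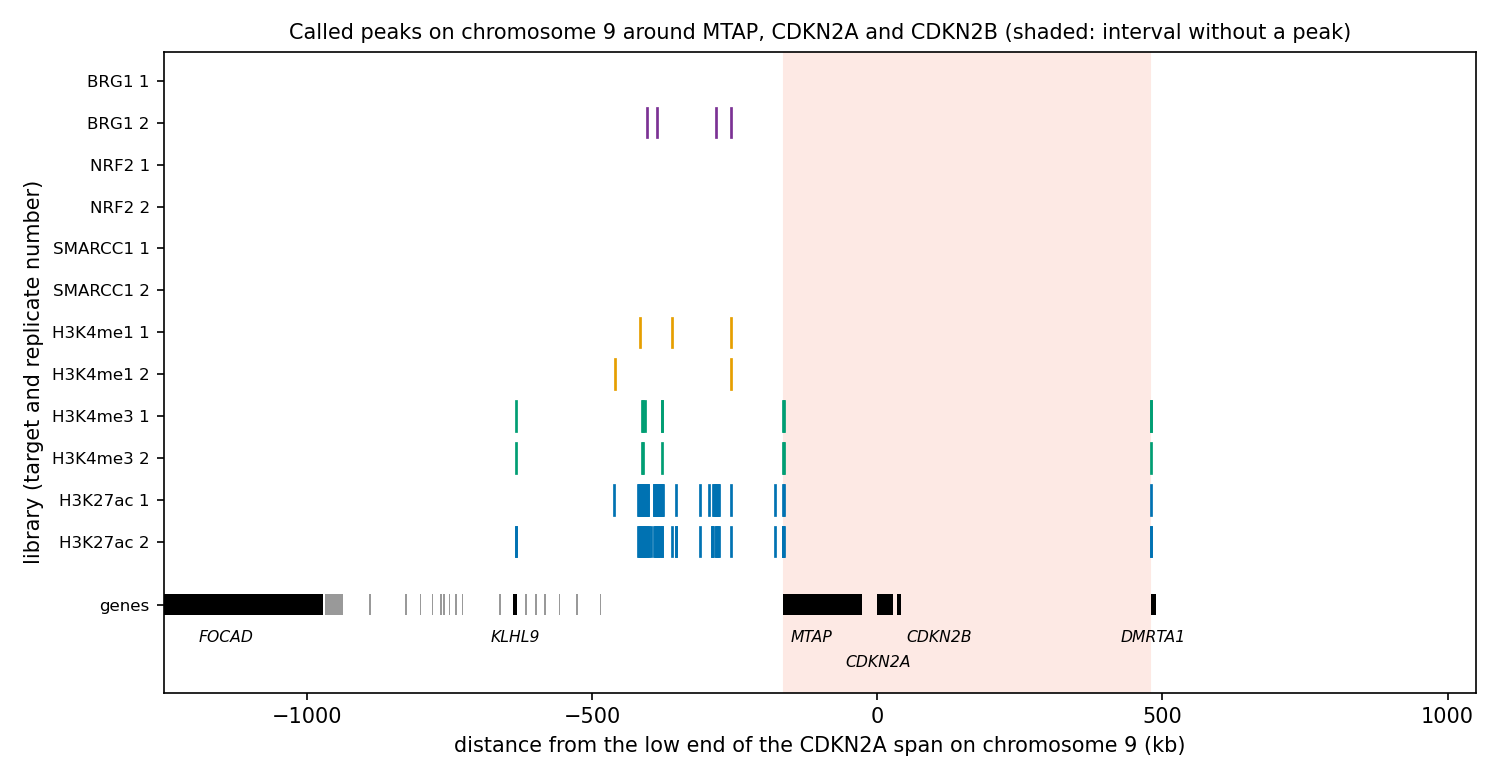
Called peaks (ticks) of the 12 libraries along chromosome 9 by distance in kb from the low end of CDKN2A, with protein-coding genes as boxes below; the interval without a peak is shaded. Peaks at MTAP and DMRTA1 bound the 641.661 kb interval, and H3K27ac peaks crowd the low side.

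Intervals of this length were a small share of all gaps by number, and not singular. Among 70280 gaps between neighbouring mark peaks, with a median length of 4.37 kb, 611 were at least as long (0.869%). Most gaps are far shorter, so this share does not say how much of the genome such long gaps cover. The gap over CDKN2A holds 3 start sites with a CpG ratio of at least 0.715, the 2 of CDKN2A and that of CDKN2B. Of the 611 gaps of this length or more, 30 held as many. They are 0.0427% of all 70280 gaps, but most of those are far too short to compare. The CpG threshold, the MTAP value, was set after the data were seen. The next gap on chromosome 9, 9:22448416-25677567, was 3229 kb long and held 6 such start sites, and no other gap of its length or more held as many. It lies over the far end of DMRTA1, all of ELAVL2, which encodes a neuronal RNA-binding protein, all of IZUMO3, and the low end of TUSC1. The mark peaks at the start of DMRTA1 are all that separates the 2 gaps. Long gaps can also be centromeres or unassembled sequence, which were not removed.

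**Figure D5:**
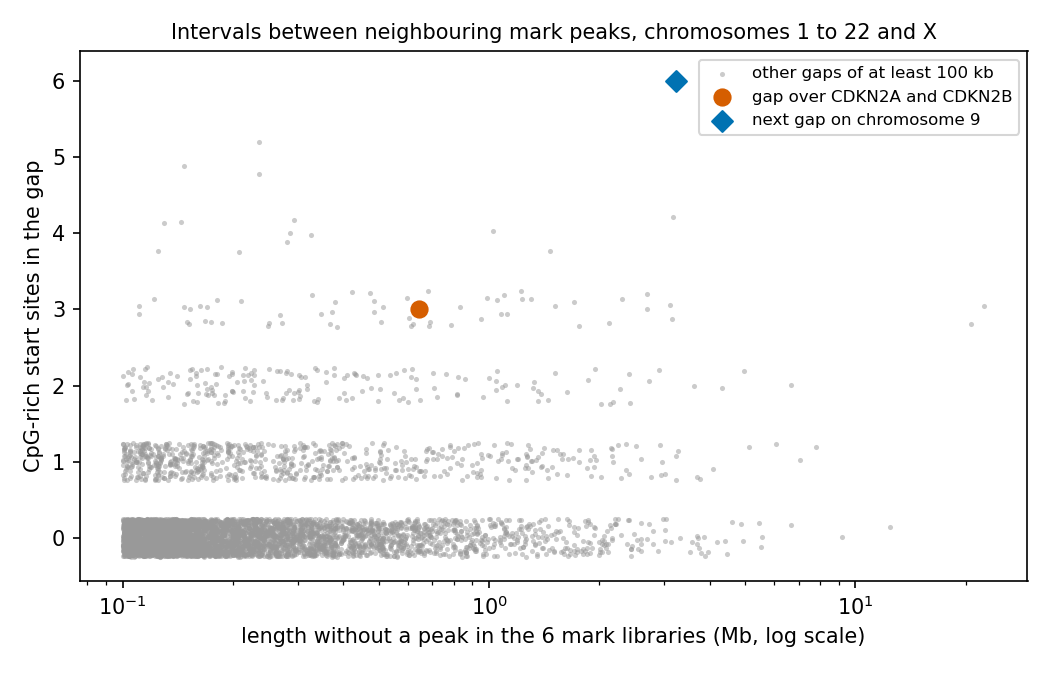
Length of each gap between neighbouring mark peaks (Mb, log scale, gaps of at least 100 kb) against the number of CpG-rich start sites in it; grey points are jittered vertically. The gap over CDKN2A and CDKN2B (641.661 kb, 3 start sites) lies among others, and the next gap on chromosome 9 (6 start sites) stands above all.

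The edges of the interval differed in how closely the libraries matched. At its low edge, inside MTAP, the last H3K4me3 peaks ended at 21805048 and 21804918 and the last H3K27ac peaks at 21804011 and 21804001. At its high edge all 4 H3K4me3 and H3K27ac libraries began their DMRTA1 peak within 3 bp, at 22446713 for H3K4me3 (fold enrichment 5.93 and 7.24) and at 22446710 for H3K27ac (4.45 and 5.02). Of 14545 mark regions shared by at least 4 libraries, 1.1% had low edges that close in 4 of them. The limit of 3 bp in 4 libraries was set after this edge was seen. This share and the one for high edges below are therefore descriptions with no test. Outside the interval, 90768 bp below the start of MTAP and with further H3K27ac peaks between, peaks of both H3K27ac libraries, both H3K4me1 libraries and BRG1 replicate 2 ended at the same base, 21711868. High edges that close were found in 1.07% of such regions. Whether such edges follow the DNA of the line or the alignment was not tested.

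Among the genes outside chromosome 9, KDM6A had the most targets. KDM6A removes methyl groups from H3K27 within the COMPASS-like complexes that also methylate H3K4. Its H3K4me3 peak reached 35.1 and 39.5 (37.3 ± 3.12, n = 2), above 91.6% and 95.7% of genes with a peak in these libraries (percentiles), and was 4264 and 3396 bp wide. H3K27ac reached 8.76 and 8.33 (8.54 ± 0.304), at percentiles 97.8 and 96.3. H3K4me1 reached 3.58 and 3.67 (3.62 ± 0.0601) in a region inside the gene, 31160 and 31071 bp after the start site. A second H3K4me1 region lay 136442 and 136645 bp after it.

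KDM6A was the only 1 of the 8 genes with a BRG1 region in both replicates, against 9.32% of all protein-coding genes. The BRG1 peaks, X:44843219-44843663 and X:44843267-44843663, had fold enrichments of 3.19 and 4.34 (3.77 ± 0.813) and summits 29717 and 29753 bp before the KDM6A start site, in no annotated gene. No histone mark peak overlapped the site, as at 827 of the 2040 reproducible BRG1 regions (40.5%), and NRF2 replicate 1 had a peak there (3.04). The −log10 q of the BRG1 peaks was 0 and 0.81, and the call ended with −log10 p of at least 5, with −log10 q of at least 1.3 or with windows of 10 kb. Each BRG1 library had 1 further peak in the window at another place, 2.64 in replicate 1 and 3.06 in replicate 2. The KDM6A window, 339.592 kb, is also the longest of the 8, and 1 of 8 is close to the share of all genes.

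MYC, the transcription factor that drives growth and metabolism, had the second highest H3K4me3 values. They were 29.5 and 29.1 (29.3 ± 0.248), in peaks 5984 and 5438 bp wide that spread over most of the gene and were wider than 99.9% and 99.8% of the H3K4me3 peaks of their libraries (percentiles of width). H3K27ac was split into 7 and 8 peaks along the gene, the widest 832 and 892 bp, with highest values of 4.34 and 4.25 (4.30 ± 0.0634), at percentiles 30.8 and 27.4. BRG1, NRF2, SMARCC1 and H3K4me1 had no peak within 50 kb of MYC. The nearest BRG1 region in both replicates lay 88.551 kb beyond the high end of MYC, in the noncoding gene PVT1, with 2.35 and 3.61, and the nearest H3K4me1 region 56.871 kb beyond it, also in PVT1, with 3.66 and 3.51. Windows of 100 kb therefore gave MYC both targets, and 2 of the 8 genes a BRG1 region.

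SMAD4, the shared partner of the receptor-activated SMADs in TGF-β signalling, had 1 H3K4me3 peak in each library at its start site. Its values were 13.2 and 17.7 (15.5 ± 3.19), at percentiles 25.3 and 40.0. H3K27ac was weak, 3.90 and 2.69 (3.29 ± 0.858), at percentiles 19.3 and 1.31. The other 4 targets had no peak in the window, and the nearest H3K4me1 region lay 100.101 kb beyond the high end of the gene, in MEX3C. The start region of SMAD4 also holds that of LOC107985152, and the peak cannot be divided between them.

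BRCA2, which acts in DNA repair by homologous recombination, had H3K4me3 values of 14.9 and 11.1 (13.0 ± 2.70) at its start site. The peak also covers the start region of ZAR1L, which faces BRCA2, so the signal cannot be assigned to 1 of them. H3K27ac at the BRCA2 start site was 3.09 and 4.29 (3.69 ± 0.843). SMARCC1 had its single peak of the 8 genes here, in replicate 2 alone, at 3.13 and with a summit 583 bp after the start site. An H3K4me1 peak of 2.46 in replicate 1 alone lay at N4BP2L1 and not at BRCA2.

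RNF43, a ubiquitin ligase that removes Wnt receptors from the cell surface, had the lowest H3K4me3 values of the 6 genes with peaks. Its window gave H3K4me3 values of 11.0 and 9.64 (10.3 ± 0.969), but these peaks cover the start region of the neighbour SUPT4H1, at the other end of RNF43. At the upstream RNF43 start site H3K4me3 was 5.03 and 5.52 (5.27 ± 0.345), and the peaks began inside the gene. No H3K27ac peak lay in the window, and H3K4me1 had 1 peak, of 2.81, in replicate 1 alone. The upstream RNF43 start region has a CpG ratio of 0.250, the lowest of the first start sites of the 7 genes in the table.

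In H3K4me3, counted over whole windows, the order was KDM6A, MYC, MTAP, SMAD4, BRCA2 and RNF43, and only SMAD4 and BRCA2 overlapped between replicates among neighbours in that order. At start sites the order was the same. In H3K27ac the order over whole windows was KDM6A, MTAP, MYC, BRCA2 and SMAD4, where MYC overlapped BRCA2 and BRCA2 overlapped SMAD4. The highest BRCA2 value of replicate 1 in that count, 3.19, is a peak at N4BP2L1. Within 1 kb of the start sites the H3K27ac order was KDM6A, MTAP, BRCA2, SMAD4 and MYC, since the higher MYC peaks lie further into the gene and those near its start were 2.95 and 2.88 (2.92 ± 0.0492). In that order SMAD4 overlapped both BRCA2 and MYC. KDM6A and MTAP led H3K27ac in both counts, while in H3K4me3 MYC stood between them.

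Counted over both replicates, H3K4me3 was present in 6 of the 8 windows, against 78.2% of all protein-coding genes. H3K27ac was present in 5 of 8, against 71.6%, and H3K4me1 in 1 of 8, against 52.6%. NRF2 was present in 0 of 8, against 1.95%, and SMARCC1 in 0 of 8, against 1.6%, with 1 peak each in a single library (KDM6A and BRCA2). The highest −log10 q of any SMARCC1 peak in the genome was 0 in both libraries, so no SMARCC1 peak passed a threshold on q. The windows of CDKN2A, CDKN2B and MTAP overlap, so these counts do not rest on 8 separate places. H3K27ac was present in 3 of 8 with either stricter threshold, which SMAD4 and BRCA2 did not pass, and H3K4me1 was then present in 0.

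A further 36 genes are altered in pancreatic carcinoma or act in the same pathways. Of these, 35 had a reproducible H3K4me3 region (97.2%, against 78.2% of all protein-coding genes). An H3K27ac region was found at 32 (88.9%, against 71.6%) and an H3K4me1 region at 27 (75%, against 52.6%). ROBO2, an axon guidance receptor, was the gene without H3K4me3. Those without a reproducible H3K27ac region were ROBO2, GATA6, a transcription factor of the classical tumour subtype, U2AF1, a splicing factor, and TGFBR1, the type I TGF-β receptor. U2AF1 has a near-identical copy in GRCh38, and whether its reads were split or dropped was not tested. The U2AF1 window did hold H3K4me3 peaks of 6.76 and 7.18. TGFBR1 had H3K27ac peaks of 3.53 and 3.43 at places that did not overlap. BRG1 was present at 4 of the 36 (11.1%), near the 9.32% of all protein-coding genes. Among them were CDK6 with 4.61 and 5.03, RBM10 with 3.78 and 4.15, and SMARCA4, which encodes BRG1, with 4.09 and 4.02. Each pair of values is from the strongest region with a peak in both replicates. The region lay inside CDK6, and for RBM10 in the neighbour NDUFB11. CDK6, a kinase held back by p16INK4a, kept its BRG1 region under both stricter thresholds, and RBM10 and SMARCA4 did not. NRF2 was present at 1 of the 36 (2.78%), near the 1.95% of all protein-coding genes. That gene was RBM10, which encodes an RNA-binding protein, through regions in its neighbour UBA1. The nearest, X:47202022-47203348, had 4.60 and 1.53, and the call was lost with 10 kb windows. SMARCC1 was present at none, against 1.6% of all protein-coding genes.

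Marker genes of cell types were looked at beside the labelled pancreatic origin. They cannot decide that origin, since the marked ones are not particular to the pancreas. KRT8, KRT18 and KRT19, keratins of simple epithelia, and VIM of mesenchymal cells carried both H3K4me3 and H3K27ac, and KRT7 H3K27ac only. The 4 acinar markers PTF1A, CPA1, CELA3A and RBPJL and the 2 endocrine markers INS and GCG carried neither. The libraries held 572 to 600 peaks for SMARCC1, 919 to 1538 for NRF2, 3213 to 6610 for BRG1, 34234 to 37283 for H3K4me1, 17752 to 18789 for H3K4me3 and 32294 to 32499 for H3K27ac. Read depth is not known here, so absence of a protein or mark and too few reads cannot be told apart, which touches the factors most.

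Genes with the profile most like each of the 6 genes were found over the 6 targets, by distance between percentiles of highest fold enrichment. They were SPC25 and G6PC2 for MTAP (0.642 percentile points each, neighbours that share peaks), ZNF10 and ARG2 for SMAD4 (1.29 and 1.47), THOC5 and RPS3A for MYC (0.719 and 1.3), and HS3ST1 and SEL1L for RNF43 (1.0 and 1.23). KDM6A and BRCA2 had no gene as close: CREBZF and CCDC89 were 14.8 points from KDM6A, and CLIC4 and FAS 12.4 and 13.9 points from BRCA2. The BRCA2 profile includes the SMARCC1 and H3K4me1 peaks seen in 1 library each, and that of RNF43 the H3K4me3 peak at SUPT4H1.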

How the data were processed

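CUT&RUN peak lists of 12 libraries were used, 2 for each of 6 targets, grouped by their labels. MACS2 2.2.7.1, Picard 2.23.9, Bowtie2 2.4.1, SAMtools 1.9 and GRCh38 are named per the submitters' processing notes; their settings, and whether peaks were called against IgG, are not given in the sources used here. Peaks were deposited library by library. Fold enrichment, a ratio, is the value the authors deposited for each peak. The deposited −log10 p-value and −log10 q-value were used only as thresholds of 5 and 1.3 in alternatives, the deposited peak score was not used, and the deposited summit position gave distances.

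Genes came from RefSeq (GRCh38.p14). Overlap meant at least 1 bp. A reproducible region is a merged region with a peak from both replicates of a target. Density was compared by an exact two-sided sign permutation test over 6 mark libraries. A start site counted as marked in the promoter table by a peak in its 300 bases, and as near a peak within 1000 bp. CpG ratio is CG count times length over C count times G count. The genes and lists were chosen with earlier results of these data known. Named genes were the 8 genes, genes in or beside the peak-free interval, marked genes within 1 Mb, other drivers with a factor region or without H3K27ac, and the 2 genes over 1 Mb away with the closest percentiles. ELAVL2, IZUMO3, TUSC1 and HACD4 were named after their values were seen. An item that the rule names is not reported here. Region functions were checked on simulated peaks. Alternatives are given in the closing section. The software was matplotlib 3.10.9, pandas 2.3.3, SciPy 1.17.1, NumPy 2.4.6 and Python 3.11.15.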

Additional observations from a re-analysis of the deposited data

How the results depend on the processing

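No paired analysis was possible because no result compares targets, so same-numbered libraries of different targets enter no common fit. Of the counts over the 8 genes, H3K4me3 was 6 in every alternative run. BRG1, 1 gene, became 0 with −log10 p of at least 5, with −log10 q of at least 1.3 and with 10 kb windows, and 2 with 100 kb windows. H3K4me1, 1 gene, became 0 under both thresholds and 3 with 100 kb windows or peaks of either replicate, and ranged from 1 to 3 with a library left out. H3K27ac, 5 genes, became 3 under both thresholds. NRF2 and SMARCC1, 0 genes, became 1 each with peaks of either replicate, and ranged from 0 to 1 with a library left out. Among the 36 other genes BRG1, 4 genes, became 2 with 10 kb windows and 1 with −log10 q of at least 1.3, NRF2, 1 gene, became 0 with 10 kb windows, and H3K4me1, 27 genes, became 4 with −log10 q of at least 1.3.

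The density difference of −2.08 peaks per Mb turned to 2.13 with 2 Mb flanks, was −11.4 with 0.5 Mb flanks (exact p = 0.25) and ranged from −3.83 to 0.174 with a library left out, turning without H3K27ac replicate 1. From CDKN2A to CDKN2B, chosen after seeing the data and empty by that choice, it was −9.83. The share of empty windows of the stretch length was 38.0% and became 51.0% and 48.8% under the thresholds on p and q, 35.9% with 12 libraries, and 38.1% to 40.2% with a library left out, since fewer or more peaks leave more or fewer windows empty. The length of the interval over CDKN2A stayed between 641.661 and 642.235 kb in every alternative run, and the thresholds gave the higher value. Of 25 alternative fold enrichments, 23 moved by no more than the replicate SD, and with 100 kb windows SMAD4 and MYC H3K27ac became 5.48 and 5.89. The causes were not tested unless stated. Depth is unknown, no interval could be set on an absent peak, and 2 replicates limit every SD.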
